A study of Mus musculus with 11 samples.

Results

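The miR-23/27/24 family of mouse liver is described here through 9 mature miRNAs, out of 1281 mature miRNA names in the deposited table: mmu-miR-23a-3p, mmu-miR-23b-3p, mmu-miR-27a-3p, mmu-miR-27a-5p, mmu-miR-27b-3p, mmu-miR-27b-5p, mmu-miR-24-3p, mmu-miR-24-1-5p and mmu-miR-24-2-5p. They were chosen by name, and where a name had several hairpins its highest count was taken. Liver small RNA was sequenced from telomerase-knockout mice of the C57/B6 strain background, labelled G4 and with short telomeres, to find miRNAs that depend on p53. The 6 G4 p53-/- libraries (numbered 6, 7, 8, 10, 11 and 12) came from such mice lacking p53, and the 5 G4 p53+/+ libraries (numbered 1 to 5) from such mice with intact p53. Both groups thus carry the telomerase knockout, and no library of mice with telomerase was analysed here. The sources used here do not name the deleted telomerase gene, the ages or the sexes. They do not state that each library is a separate animal either, and p-values therefore measure only how these samples spread, which may be technical. In whole liver, fewer cells of a type and less RNA per cell cannot be told apart.

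A miRNA is cut from a hairpin whose 5p and 3p arms can each be loaded into an Argonaute protein, where the seed, bases 2 to 8, directs the choice of messenger RNAs to repress. The miR-23/27/24 family is made from a pair of paralogous clusters, a (miR-23a, miR-27a and miR-24-2) and b (miR-23b, miR-27b and miR-24-1), and the members of a cluster are transcribed together as a shared primary RNA. miR-27 is known to repress PPAR-gamma and other regulators of fat storage, miR-23 is known in human cells to repress glutaminase downstream of MYC, and miR-24 is known in human cells to repress cell-cycle and DNA-repair genes such as E2F2 and the histone H2AX. Both clusters are well known in endothelial cells.

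The mature sequences show which arms of the clusters can be told apart by their reads and which share targets through a common seed. They are RefSeq sequences on GRCm38.p6, matched by name for 8 of the 9 members, written 5′ to 3′ with the seed in capitals; miR-23b-3p is the member without an entry.
miR-23a-3p: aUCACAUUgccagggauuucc
miR-27a-3p: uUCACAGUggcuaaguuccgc
miR-27b-3p: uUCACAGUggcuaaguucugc
miR-27a-5p: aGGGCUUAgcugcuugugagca
miR-27b-5p: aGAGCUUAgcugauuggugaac
miR-24-2-5p: gUGCCUACugagcugaaacagu
miR-24-1-5p: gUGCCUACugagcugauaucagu
miR-24-3p: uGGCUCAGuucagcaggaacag

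miR-27a-3p and miR-27b-3p share their seed and differ at 1 of 21 positions, C19U (the base of miR-27a-3p, the position from its 5′ end, then the base of miR-27b-3p). A read that ends within their first 18 bases matches both names. The 5p arms of the same hairpins differ at 8 of 22 positions, among them G3A inside the seed, so miR-27a-5p and miR-27b-5p have different seeds. miR-24-2-5p and miR-24-1-5p share the seed and their first 16 bases. miR-24-3p is the same sequence from both clusters, and its 2 entries in the deposited table held the same count in every library, so its reads cannot be divided between the clusters. How far reads tell miR-23a-3p from miR-23b-3p was not checked, as miR-23b-3p has no entry, and their ratios carry this limit. The sources used here do not say how reads matching several names were assigned.

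The a cluster lies on chromosome 8 of GRCm38, on the plus strand, with Mir23a from 84208518 to 84208592, Mir27a from 84208672 to 84208758 and Mir24-2 from 84208815 to 84208921, all within 404 bases. GENCODE M21 annotates no other gene over Mir23a and Mir27a, while Mir24-2 overlaps an exon of the lincRNA Gm26532. The b cluster lies on chromosome 13, plus strand, with Mir23b from 63300484 to 63300557, Mir27b from 63300712 to 63300784 and Mir24-1 from 63301208 to 63301275, within 792 bases. It sits inside the protein-coding gene 2010111I01Rik on the same strand, Mir23b in an intron and Mir27b and Mir24-1 over annotated exons, and opposite an intron of Fancc. Both Mir24 hairpins also lie opposite an annotated miRNA of the other strand, Mir3074-2 over Mir24-2 and Mir3074-1 over Mir24-1.

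Total counts per library were 2202415 to 6682492 in p53-/- livers and 1905609 to 6448820 in p53+/+ livers. Libraries 1 and 2 were the shallowest of the p53+/+ group and stand apart from the rest in several values below, so results that rest on them are given with and without them. miR-122-5p, the hallmark miRNA of hepatocytes, took 52.8 to 64.0% of counts in p53-/- libraries and 52.4 to 57.7% in p53+/+ libraries, which fits the labelled tissue. The Trp53 transcript is no part of a miRNA table; miR-34a-5p, a direct p53 target, had a mean level of 7.13 ± 2.95 CPM after TMM scaling in the 6 p53-/- libraries, against 71.9 ± 32.4 CPM in the 5 p53+/+ libraries (± SD). The 9 members together took 1.37 to 2.27% of counts in p53-/- libraries and 1.61 to 2.25% in p53+/+ libraries.

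mmu-miR-27b-3p, which shares its seed with mmu-miR-27a-3p, was the most abundant of the 9 in all 11 libraries. Levels are given as normalised CPM, which are counts scaled to library size with TMM factors; a read stands for 1 whole miRNA of 21 to 23 bases, so values were not divided by length, and reads were not calibrated to molecules. Its level in the p53-/- libraries ran from 10951 to 16454 CPM with a median of 14383, against 10974, 9245, 17188, 17925 and 13216 CPM in p53+/+ libraries 1 to 5. The groups overlapped, and the lowest value of all 11 was that of p53+/+ library 2. By mean level it ranked at place 11 among the 388 miRNAs tested.

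By median level over the 11 libraries the order below miR-27b-3p (13992 CPM) was miR-23b-3p (2186), miR-24-3p (1403), miR-23a-3p (557), miR-24-2-5p (82.1), miR-27a-3p (67.2), miR-27a-5p (25.5), miR-27b-5p (11.6) and miR-24-1-5p (6.56). miR-23b-3p lay above miR-24-3p in 10 of 11 libraries but their ranges overlapped. miR-24-2-5p lay above miR-27a-3p in 8 of 11, so the order of those neighbours was not separated from the spread between libraries. The ranges of miR-27a-5p and miR-27b-5p overlapped across libraries, yet miR-27a-5p was the higher in 11 of 11, and miR-27b-5p lay above miR-24-1-5p in 10 of 11.

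**Figure D1:**
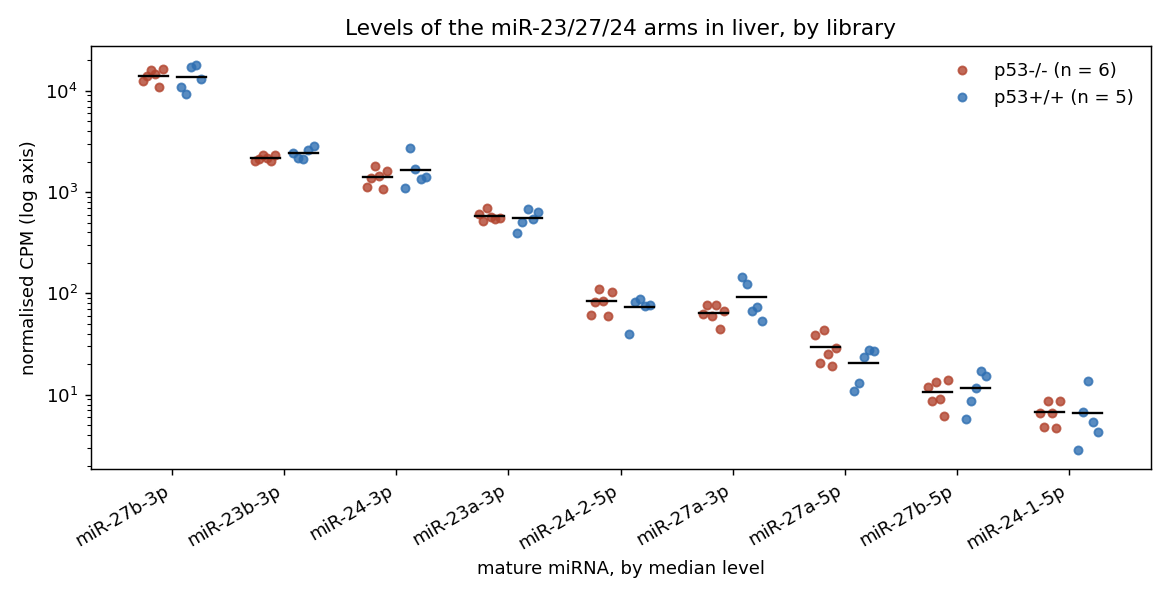
Normalised CPM on a log axis for the 9 arms, ordered by median level, with a point per library (p53-/- left, n = 6; p53+/+ right, n = 5) and a bar at each group's mean. The levels span from 2.86 to 17925 CPM, the genotypes overlap for each arm, and p53+/+ libraries 1 and 2 are the 2 high points of miR-27a-3p and the 2 low points of miR-27a-5p.

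The clusters were unequal in opposite directions on the 3p arms and on the 5p arms of miR-27 and miR-24. On the 3p side the b cluster led: miR-27a-3p had 0.00374 to 0.0135 counts per count of miR-27b-3p, which is 74.0 to 267 times fewer, and miR-23a-3p had 0.161 to 0.318 counts per count of miR-23b-3p, or 3.15 to 6.23 times fewer. On the 5p side of miR-27 and miR-24 the a cluster led. miR-27a-5p had 1.53 to 3.29 counts per count of miR-27b-5p, and miR-24-2-5p had 6.45 to 18.1 counts per count of miR-24-1-5p. Each of these directions held in 11 of 11 libraries. The rare 5p arms of miR-23 went the other way, with 1 to 7 counts of miR-23a-5p per library against 8 to 46 of miR-23b-5p.

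Summed over the arms whose names belong to 1 cluster, the a cluster (miR-23a-3p, miR-27a-3p, miR-27a-5p and miR-24-2-5p) held a small share of the reads. It made up 3.87 to 5.03% of the reads of both clusters in p53-/- libraries and 3.37 to 5.94% in p53+/+ libraries, with medians of 4.47% in p53-/- and 4.24% in p53+/+ libraries. These sums are dominated by miR-27b-3p and miR-23b-3p. miR-24-3p, which both clusters make, was 6.86 to 8.63% of all reads of the 9 members in p53-/- libraries and 5.91 to 7.74% in p53+/+ libraries 1, 3, 4 and 5, but 18.2% in p53+/+ library 2.

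Between genotypes, the a/b balance of the miR-27 5p arms differed. The ratio of mmu-miR-27a-5p to mmu-miR-27b-5p was 3.29, 2.40, 3.26, 2.83, 3.12 and 2.07 in p53-/- libraries 6, 7, 8, 10, 11 and 12, and 1.92, 1.53, 2.03, 1.61 and 1.74 in p53+/+ libraries 1 to 5. Every p53-/- library lay above every p53+/+ library, although p53-/- library 12 (2.07) and p53+/+ library 3 (2.03) nearly touched. The mean log2 ratio was 1.47 ± 0.27 in the 6 p53-/- libraries and 0.80 ± 0.17 in the 5 p53+/+ libraries (± SD), a difference of 0.67, or a ratio 1.59 times as high in p53-/- livers (two-sided exact permutation p = 0.00433, adjusted p = 0.0346 over the 8 ratios compared). The smallest p that 6 libraries against 5 allow is 0.00216.

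That difference rests on few reads of minor arms. Counts of miR-27a-5p ran from 53 to 235 in p53-/- and from 23 to 164 in p53+/+ libraries, and those of miR-27b-5p from 17 to 101 in p53-/- and from 12 to 102 in p53+/+ libraries. In p53-/- library 12, miR-27a-5p made up 67.4% of the reads of both arms (95% Wilson interval 62.0 to 72.4%), and in p53+/+ library 3 it made up 67.0% (60.4 to 73.0%), so the libraries nearest to each other were not told apart at this depth. With a library left out the difference stayed between 0.62 and 0.75, and the raw p of the exact permutation test was 0.00794 whichever p53-/- library was left out and 0.00952 whichever p53+/+ library was left out. With a p53-/- library left out the groups were of equal size, so each split had a mirror image with the same absolute difference. The raw p of 0.00794 was therefore the smallest possible there. Unless another ratio also has a small p, that raw p adjusts to 0.0635, so those repeats could not pass. The adjusted p was 0.0635 to 0.0762 except without p53+/+ library 3. There it was 0.0381 at the same raw p of 0.00952, because the miR-23a-3p/miR-23b-3p ratio also had a small exact permutation p (0.00476) in that setting. Without both p53+/+ libraries 1 and 2 the difference was 0.64 (exact permutation p = 0.0119, the smallest raw p that these libraries allow; adjusted p = 0.0952). With only the p53-/- libraries whose HA number in the labels, of unstated meaning, is above 500, as it is in all p53+/+ libraries, it was 0.58 (exact permutation p = 0.0179, again the smallest raw p; adjusted p = 0.143).

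Neither arm of that ratio passed by itself in the test across all miRNAs. miR-27a-5p, whose function is less known than that of its 3p partner, was at 39.2, 20.8, 43.4, 25.5, 19.4 and 29.1 CPM in p53-/- libraries 6, 7, 8, 10, 11 and 12, and at 11.0, 13.1, 23.5, 27.6 and 26.9 CPM in p53+/+ libraries 1 to 5. Libraries 1 and 2 lay below all others, while the other 3 p53+/+ libraries lay within the p53-/- range. In edgeR the log2 fold change was 0.52 with an SE of 0.30 (95% interval -0.12 to 1.16, adjusted p = 0.399), and 0.23 without libraries 1 and 2 (adjusted p = 0.770 in edgeR). miR-27b-5p had a lowest, median and highest level of 6.21, 10.5 and 14.1 CPM in p53-/- libraries, against 5.72, 8.57, 11.6, 17.2 and 15.5 CPM in p53+/+ libraries 1 to 5. Its log2 fold change was -0.17 (SE 0.30, 95% interval -0.81 to 0.47, adjusted p = 0.792 in edgeR), and -0.44 without libraries 1 and 2 (adjusted p = 0.508 in edgeR).

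**Figure D2:**
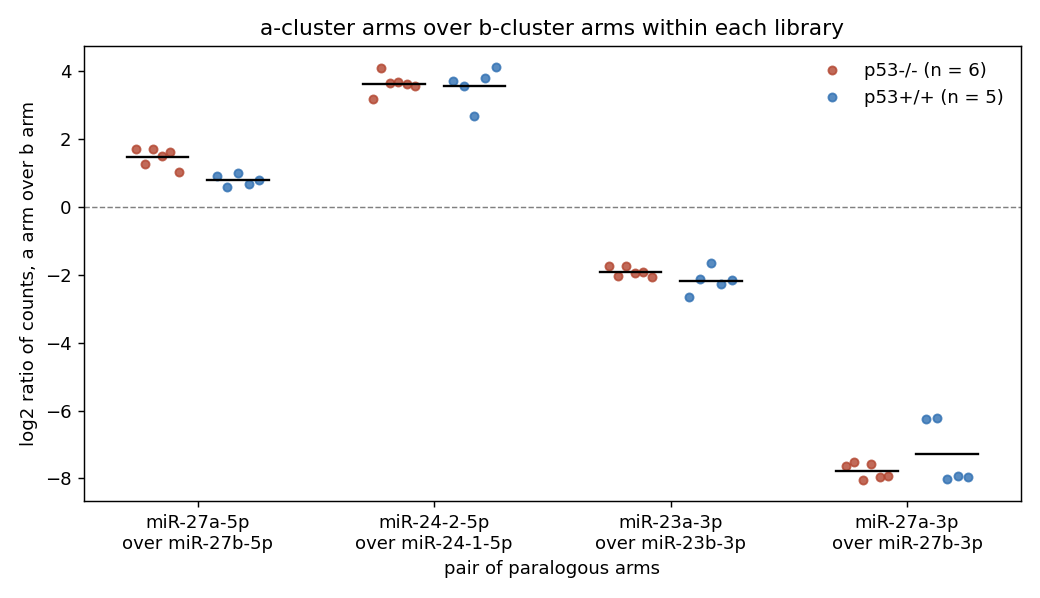
Log2 ratio of the counts of an a-cluster arm over its b-cluster counterpart within each library (points; p53-/- left, n = 6; p53+/+ right, n = 5) with a bar at each group's mean and a dashed line at equal counts. The 5p pairs lie above the line and the 3p pairs below it in all 11 libraries, and only for miR-27a-5p over miR-27b-5p, with means of 1.47 in p53-/- and 0.80 in p53+/+ libraries, do the genotypes not overlap.

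The other a/b ratios did not pass between genotypes. Means ± SD over 6 p53-/- and 5 p53+/+ libraries are given. The log2 ratio of miR-23a-3p to miR-23b-3p was -1.91 ± 0.14 in p53-/- livers and -2.17 ± 0.35 in p53+/+ livers, a difference of 0.26 (exact permutation p = 0.134, adjusted p = 0.358). Without p53+/+ library 3, which had the highest ratio of all (0.318), the difference was 0.39 and passed (exact permutation, adjusted p = 0.0381). Without p53+/+ library 1, which had the lowest ratio of all (0.161), it was 0.14 (exact permutation, adjusted p = 0.629). Without libraries 1 and 2 it was 0.12 (exact permutation, adjusted p = 0.925). The ratio of miR-24-2-5p to miR-24-1-5p had a log2 value of 3.63 ± 0.29 in p53-/- livers and 3.57 ± 0.54 in p53+/+ livers, a difference of 0.057 (exact permutation p = 0.883, adjusted p = 0.883). That of miR-27a-3p to miR-27b-3p differed by -0.51, with -7.78 ± 0.23 in p53-/- livers and -7.26 ± 0.95 in p53+/+ livers (exact permutation p = 0.290, adjusted p = 0.387).

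The last of these pairs was split within the p53+/+ group. miR-27a-3p made up 0.373 to 0.541% of the reads of miR-27a-3p and miR-27b-3p in p53-/- libraries, and 0.387, 0.411 and 0.403% in p53+/+ libraries 3, 4 and 5. In p53+/+ libraries 1 and 2 it made up 1.3% (95% Wilson interval 1.16 to 1.45%) and 1.33% (1.19 to 1.5%). Those 2 intervals lay above every other library's value, and without the 2 libraries the difference between genotypes was 0.18 instead of -0.51 (exact permutation, adjusted p = 0.921).

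The same 2 libraries set the mmu-miR-27a-3p result. Its level was at 63.3, 76.1, 60.3, 77.4, 44.2 and 67.2 CPM in p53-/- libraries 6, 7, 8, 10, 11 and 12, and at 144, 125, 66.7, 74.0 and 53.5 CPM in p53+/+ libraries 1 to 5. In edgeR the log2 fold change was -0.51 with an SE of 0.26 (95% interval -1.07 to 0.047, adjusted p = 0.330), and 0.048 without libraries 1 and 2 (adjusted p = 0.927 in edgeR). Read from the same hairpin, miR-27a-5p was lowest where miR-27a-3p was highest: the 5p arm had 0.273 to 0.721 counts per count of the 3p arm in p53-/- libraries, against 0.0759 and 0.105 in p53+/+ libraries 1 and 2 and 0.352, 0.373 and 0.502 in p53+/+ libraries 3, 4 and 5. The mean log2 ratio of the arms was -1.17 ± 0.53 in the 6 p53-/- libraries and -2.17 ± 1.21 in the 5 p53+/+ libraries (± SD), a difference of 1.00 that did not pass (exact permutation p = 0.110, adjusted p = 0.358) and that was 0.14 without libraries 1 and 2.

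**Figure D3:**
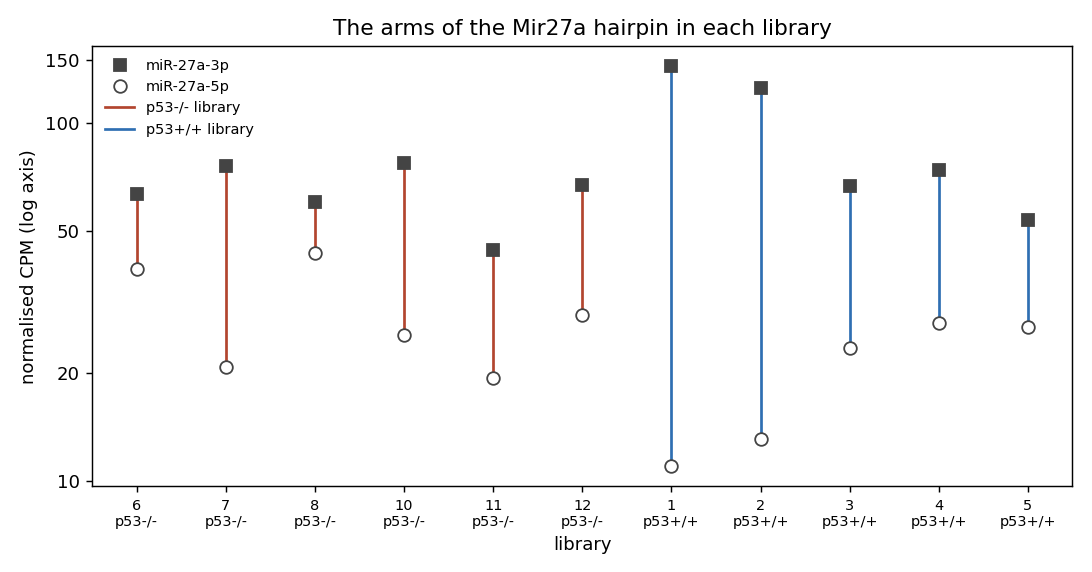
Normalised CPM on a log axis of miR-27a-3p (squares) and miR-27a-5p (circles) in each library, joined by a line coloured by genotype, with the 6 p53-/- libraries on the left and the 5 p53+/+ libraries on the right. The arms are farthest apart in p53+/+ libraries 1 and 2, at 144 against 11.0 and 125 against 13.1 CPM, and nearest in p53-/- library 8.

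On the Mir27b hairpin the 3p arm took nearly all reads. miR-27b-5p had 1 count per 1051 to 1764 counts of miR-27b-3p in p53-/- libraries and per 855 to 1918 in p53+/+ libraries. The mean log2 arm ratio was -10.42 ± 0.30 in the 6 p53-/- libraries and -10.23 ± 0.45 in the 5 p53+/+ libraries (± SD), a difference of -0.18 (exact permutation p = 0.435, adjusted p = 0.497). By the counts under these names, Mir27a and Mir27b thus stood far apart in arm usage, since miR-27a-3p outnumbered miR-27a-5p by 1.39 to 13.2 times over the 11 libraries. miR-27a-3p differs at 1 base from the far more abundant miR-27b-3p. Whether reads of miR-27b-3p were counted as miR-27a-3p was not tested, and every value of miR-27a-3p carries this limit.

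Within the clusters, the miR-23 and miR-27 neighbours stood in different proportions. miR-23a-3p had 6.86 to 12.2 counts per count of miR-27a-3p in p53-/- libraries, and 2.72 to 11.9 in p53+/+ libraries, the lowest in library 1. In the b cluster miR-23b-3p had 0.143 to 0.186 counts per count of miR-27b-3p in p53-/- libraries and 0.124 to 0.236 in p53+/+ libraries, so there the miR-27 arm was the larger. The log2 differences were 0.54 for the a cluster (exact permutation p = 0.232) and -0.23 for the b cluster (exact permutation p = 0.221), and neither passed (adjusted p = 0.371 for both). Without libraries 1 and 2 the difference was -0.078 for the a cluster and -0.017 for the b cluster.

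In the test across all miRNAs, none of the 9 members passed between genotypes. All 9 passed the filter on low counts. Of them 4 had a log2 fold change above 0, where 49% of all tested did, and 5 below 0, where 51% did. Their median was -0.012, beside -0.0095 over all 388 miRNAs. edgeR called 0 of the 9 at an adjusted p of 0.05, where it called 0.258% of all miRNAs tested. At an unadjusted p under 0.05 there were also 0 of 9, against 17.3% of all tested, and DESeq2 (1.8% of all called) and limma-voom (0.258%) called 0 as well. No member's ranges were apart between the genotypes, while those of 2.32% of all miRNAs were.

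The intervals were narrowest for mmu-miR-23b-3p and mmu-miR-23a-3p. miR-23b-3p was at 2037 to 2349 CPM with a median of 2149 in p53-/- libraries, and at 2447, 2186, 2135, 2590.4 and 2866 CPM in p53+/+ libraries 1 to 5. The p53-/- libraries were all lower than the middle p53+/+ value, but the ranges overlapped. In edgeR the log2 fold change was -0.17 with an SE of 0.13 (95% interval -0.44 to 0.11, adjusted p = 0.547). miR-23a-3p was at 522 to 699 CPM with a median of 559.7 in p53-/- libraries, and at 393, 503, 678, 539 and 639 CPM in p53+/+ libraries 1 to 5. Its log2 fold change was 0.079 (SE 0.16, 95% interval -0.27 to 0.43, adjusted p = 0.814 in edgeR), and -0.046 without libraries 1 and 2. For miR-27b-3p it was 0.044 (SE 0.19, 95% interval -0.36 to 0.45, adjusted p = 0.934 in edgeR), and -0.15 without those 2 libraries.

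The miR-24 arms stood near 0 with a wider spread. miR-24-3p was at 1072 to 1829 CPM with a median of 1405 in p53-/- libraries, and at 1106, 2707, 1694, 1336 and 1403 CPM in p53+/+ libraries 1 to 5. Its highest value was that of p53+/+ library 2, and edgeR's log2 fold change was -0.23 with an SE of 0.23 (95% interval -0.72 to 0.26, adjusted p = 0.629) over all libraries and -0.039 without libraries 1 and 2. miR-24-2-5p was at 60.2 to 110.0 CPM with a median of 83.8 in p53-/- libraries, and at 40.0, 82.1, 88.6, 75.5 and 77.3 CPM in p53+/+ libraries 1 to 5. In edgeR its log2 fold change was 0.20 with an SE of 0.23 (95% interval -0.29 to 0.70, adjusted p = 0.684). It was 0.062 without p53+/+ library 1 and 0.088 without libraries 1 and 2. miR-24-1-5p, the rarest member with 6 to 82 counts per library, was at 4.75 to 8.69 CPM with a median of 6.60 in p53-/- libraries, and at 2.86, 6.77, 13.7, 5.38 and 4.28 CPM in p53+/+ libraries 1 to 5. In edgeR its log2 fold change was -0.012 with an SE of 0.35 (95% interval -0.78 to 0.75, adjusted p = 0.988), and it was 0.42 without p53+/+ library 3, which held its highest value.

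**Figure D4:**
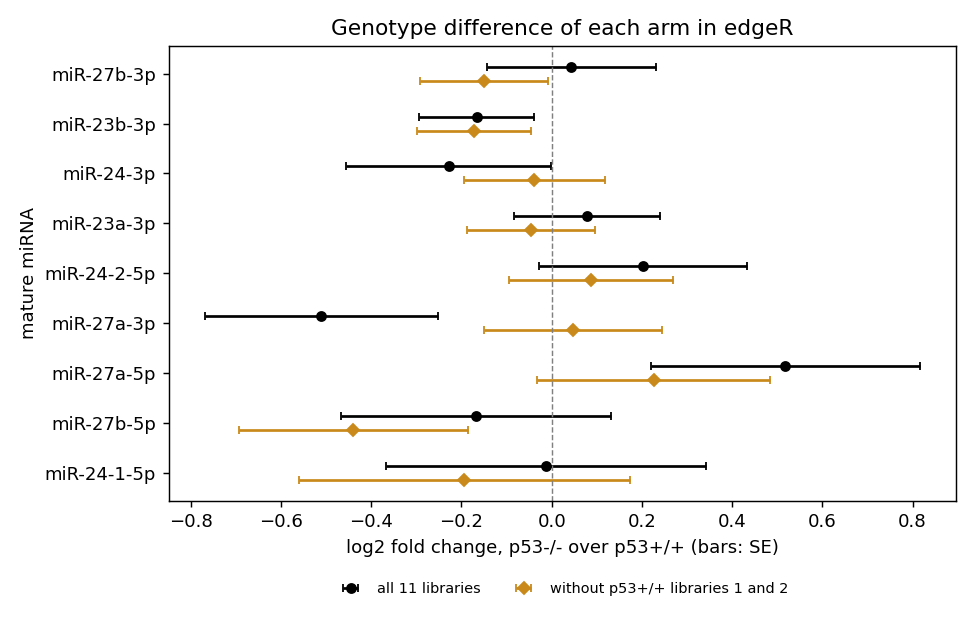
Log2 fold change of each arm, p53-/- over p53+/+, from edgeR (points, with the SE as bars), with all 11 libraries (black) and without p53+/+ libraries 1 and 2 (orange). miR-27a-3p (-0.51) and miR-27a-5p (0.52) lie farthest from 0 on opposite sides with all libraries, and at 0.048 and 0.23 without those 2; none passed in either case.

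The paralogous arms were also compared across the 11 libraries on log2 CPM, which share the same scaling. The 5p arms of the clusters were correlated over all 11 libraries: for miR-27a-5p and miR-27b-5p Pearson's r was 0.73 (permutation p = 0.00984, adjusted 0.0236 over 4 pairs) and Spearman's rho 0.82 (permutation p = 0.0034, adjusted 0.0136). For miR-24-2-5p and miR-24-1-5p r was 0.73 (permutation p = 0.0118, adjusted 0.0236) and rho 0.77 (permutation p = 0.00745, adjusted 0.0149). Both relations rest in part on the libraries farthest from the median: without libraries 1 and 2 the first r was 0.58, and without libraries 1 and 11 the second was 0.47. Without libraries 1 and 2 neither pair passed (permutation, adjusted p = 0.168 for both), and on CPM scaled to total counts the miR-27 5p pair did not pass (r 0.61, permutation, adjusted p = 0.0883). Within the 6 p53-/- libraries r was 0.83 and 0.70 for these pairs, and the p53+/+ group is too small for a value of its own.

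Of the 3p pairs, miR-23a-3p and miR-23b-3p had an r of -0.015 (permutation p = 0.963, adjusted 0.963) and a rho of -0.12 (permutation p = 0.735, adjusted 0.818), and r was 0.19 without libraries 1 and 8. For miR-27a-3p and miR-27b-3p the libraries fell into separate clusters, with libraries 1 and 2 high on the first and low on the second, so no pooled value is given for them here. Over the other 9 libraries r was 0.67 (permutation p = 0.0461, adjusted 0.168 over the 4 pairs), and 0.64 within the 6 p53-/- libraries. Over the same 9 libraries r was 0.58 for the miR-27 5p pair and 0.55 for the miR-24 5p pair, and differences between correlations were not tested.

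The other miRNAs whose levels followed a member most closely over the 11 libraries differed between the members. By Spearman's rho, miR-27b-3p was most like miR-100-5p (0.87), miR-532-5p (0.84), miR-1843b-5p (0.84) and miR-378a-3p (0.83). miR-24-3p was most like miR-130a-3p (0.94), the endothelial miR-126-3p (0.93), miR-3068-5p (0.82) and miR-193a-3p (0.81). miR-27a-3p was most like miR-547-3p (0.80), miR-22-3p (0.77), miR-378a-5p (0.77) and miR-181c-5p (0.75). These are the highest values among all other tested miRNAs, and what chance gives among so many was not tested. Some were at low levels, such as miR-547-3p at 1.83 to 7.67 CPM and miR-193a-3p at 1.10 to 7.67 CPM. miR-22-3p was at 3715 to 11217 CPM in p53-/- libraries, at 20586 and 33760.4 CPM in p53+/+ libraries 1 and 2, and at 6669 to 9252 CPM in the other p53+/+ libraries, so it too was highest in libraries 1 and 2.

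The endothelial markers were also highest in library 2, by a small margin. The summed level of miR-126-3p and miR-126-5p, the 2 of 4 listed endothelial names found in the table, was 5439 to 11241 CPM before TMM scaling in p53-/- libraries and 6414 to 12805 CPM in p53+/+ libraries, and library 2 was the highest of all. On the TMM scale used for miR-24-3p, miR-126-3p was at 10668 CPM in library 2, near the 10208 and 10299 CPM of p53-/- libraries 8 and 12 and the 10488 CPM of p53+/+ library 3. miR-24-3p was at 2707 CPM in library 2, against 1829 and 1606 CPM in p53-/- libraries 8 and 12 and 1694 CPM in p53+/+ library 3. In library 1 the summed markers were at 6414 CPM, the lowest of its group, as miR-24-3p was. That sum is mostly miR-126-3p, which was at 5769 CPM in library 1 on the TMM scale. miR-126-5p did not follow it, at 241 CPM in library 1, above every library but library 2 (344 CPM). The part of the endothelial markers in the miR-24-3p values was not tested.

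Other miRNAs of the processes in which this family is known to act were described in the same way. Of 19 miRNAs listed for lipid and glucose metabolism, 15 were tested, 6 with values above 0 and 9 below, with a median log2 fold change of -0.011 beside -0.0095 over all miRNAs. In that list 0 rose and 1 fell in edgeR's test, miR-34a-5p (-3.33, adjusted p = 7.07e-05), which was the 1 call among all 388 miRNAs (0.258%). In the same list miR-30c-5p, which is known to lower lipid secretion, was at -0.51 (adjusted p = 0.174). Of 15 names listed for endothelial cells and vessels, 11 were tested, 4 above 0 and 7 below, with a median of -0.18 and 0 calls in edgeR; the smallest p were those of miR-17-5p (-0.53, adjusted p = 0.174) and miR-20a-5p (-0.45, adjusted p = 0.184), which come from a shared cluster.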

How the data were processed

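For each mature miRNA and hairpin the authors deposited a raw read count and, in a second table, a CPM value scaled to a fixed total per library. The build GRCm38 and the tool limma are named, with no role given, per the submitters' processing notes. The sources used here name no aligner, counter, adapter trimming or strand setting. Per the labels' protocols, RNA came from 50 mg of liver by Trizol with DNA digestion and column purification. The deposited counts per library equalled those of the series table (0 values differed), and the 1418 entries were reduced to 1281 names by the highest count over hairpins; the CPM table was not tested.

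Genotypes were compared with edgeR's quasi-likelihood test (version 4.0.16, under R 4.3.3, with TMM factors and the filterByExpr filter; Benjamini-Hochberg over the 388 miRNAs that passed, threshold 0.05). Normalised CPM and log2 CPM (prior count 2) were computed from the counts. Ratios between members were taken within a library, with 0.5 added to each count for log2 values, and compared by two-sided exact permutation of the libraries, adjusted over 8 ratios. Correlations used 100000 permutations. Alternatives were DESeq2 1.42.0, limma-voom (limma 3.58.1), other scalings, filters, pseudocounts and hairpin choices, and fewer libraries. The edgeR script was first tested on simulated data, in 5 runs with 200 of 388 miRNAs changed. It called, with the right sign, 26% of the 1.5-fold changes, 63.2% of the 2-fold and 99.2% of the 4-fold. Of its calls 2.7% were false. Most changes of 1.5-fold were thus missed. Intervals and the limit of 3 counts that a count of 0 allows (0.449 to 1.57 CPM) cover counting error only, as no molecular identifiers are named in the sources used here.

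All libraries carry lane 4 and the same date in their descriptions. The p53-/- libraries also carry HA numbers, of unstated meaning, of 406, 407, 411, 573, 587 and 588, and the p53+/+ libraries 580 to 584. The replicate numbers of the titles pair no libraries. All 9 members are named, with the 4 miRNAs most like each of miR-27a-3p, miR-27b-3p and miR-24-3p and the 2 smallest p of each list. The members and lists were chosen with earlier results of these data known.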

Additional observations from a re-analysis of the deposited data

Results flagged for a closer look

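Each member's normalised CPM and each of the 8 log2 ratios was checked within each genotype for a library far from the others, 34 groups of values in all, of which chance flags about 1 in 20. The check compares the most extreme library with the next one. Libraries that stand apart together, as libraries 1 and 2 did for miR-27a-3p, therefore escape the check. It found 1. miR-24-2-5p was at 40.0 CPM in p53+/+ library 1, where the other 4 p53+/+ libraries lay between 75.5 and 88.6 CPM; that gap was 0.73 of the group's range.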

How the results depend on the processing

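No member was called by edgeR under any setting or with any library left out, nor by DESeq2 or limma-voom; at an unadjusted p under 0.05 edgeR gave 1 of 9 without p53+/+ library 3, 4 or 5 and 0 of 9 otherwise. Over all miRNAs the count was 1 in edgeR and limma-voom under each setting and 7 in DESeq2. Of 367 repeats, 328 were unchanged. That means the same direction and side of the threshold or, for numbers of calls, the same number. Without p53+/+ libraries 1 and 2 the log2 fold changes of miR-23a-3p (-0.046), miR-27a-3p (0.048) and miR-27b-3p (-0.15) turned sign, as did the log2 differences of miR-27a-3p/miR-27b-3p (0.18) and miR-23a-3p/miR-27a-3p (-0.078). When p53-/- libraries with HA numbers under 500 were left out, miR-23a-3p was at -0.010. miR-24-1-5p was at 0.070 in limma-voom and at 0.00080 without miR-122-5p in the scaling. With a library left out, log2 fold changes ran from -0.018 to 0.12 for miR-23a-3p, -0.17 to 0.42 for miR-24-1-5p and -0.098 to 0.12 for miR-27b-3p. The log2 differences ran from 0.14 to 0.39 for miR-23a-3p/miR-23b-3p and from -0.17 to 0.20 for miR-24-2-5p/miR-24-1-5p. For miR-27a-5p/miR-27b-5p they ran from 0.62 to 0.75; it was 0.64 without libraries 1 and 2 (exact permutation, adjusted p = 0.0952) and 0.58 without the HA numbers under 500 (adjusted p = 0.143, where 56 splits allow no raw p below 0.0179). The correlation of miR-27a-5p with miR-27b-5p was 0.61 on CPM scaled to total counts (permutation, adjusted p = 0.0883) and 0.58 without libraries 1 and 2, and that of miR-24-2-5p with miR-24-1-5p 0.55 without them (adjusted p = 0.168 for both). The correlation of miR-23a-3p with miR-23b-3p was 0.15 on total counts and 0.18 without libraries 1 and 2, and that of miR-27a-3p with miR-27b-3p was 0.67 without those 2 and of the opposite sign with them. The cause of these changes was not tested beyond the fewer splits that fewer libraries allow. No paired analysis was possible because the genotypes share no replicate numbers. Depth limits miR-24-1-5p (6 counts in library 1) and miR-27b-5p (12 counts there) most.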

Other observations

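The other arms of the Mir23 hairpins were rare. miR-23b-5p had 8 to 46 counts per library and was at 5.02 ± 1.35 CPM (SD, n = 6) in p53-/- livers and 4.99 ± 1.58 CPM (SD, n = 5) in p53+/+ livers, where edgeR gave a log2 fold change of 0.0031 with an SE of 0.28 (adjusted p = 0.996). miR-23a-5p had 1 to 7 counts per library and did not pass the filter on low counts. Of the miRNAs annotated opposite the Mir24 hairpins, miR-3074-5p had 1 to 18 counts, miR-3074-1-3p at most 2 and miR-3074-2-3p 0 in every library, against 2319 or more counts of miR-24-3p, so few reads carried the names of that strand.

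Marker miRNAs of other cells were summed per library, in CPM before TMM scaling. Hepatocyte markers summed to 577429 to 675260 CPM in p53-/- livers and 567540 to 621170 CPM in p53+/+ livers. Leukocyte markers were at 131 to 196 CPM in p53-/- and 95.1 to 184 CPM in p53+/+ livers, red cell markers at 526.1 to 1342 CPM in p53-/- and 556 to 1289.7 CPM in p53+/+ livers, and mesenchymal markers at 5082 to 7381 CPM in p53-/- and 5134 to 8868 CPM in p53+/+ livers. Muscle markers were at 3.86 to 49.9 CPM in p53-/- and 4.58 to 42.0 CPM in p53+/+ livers. Pancreas markers were at 6.01 to 25.4 CPM in p53-/- livers, and at 3.05, 102, 86.6, 16.0 and 387 CPM in p53+/+ libraries 1 to 5. Libraries 2, 3 and 5 thus lay above every p53-/- library, and libraries 1 and 2 did not share a level of these markers. No marker of these lists was called in edgeR.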
